A study of Mus musculus with 8 samples.

Results

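Clone 6 and clone 7 are 2 mouse embryonic stem (ES) cell lines that were compared by RNA sequencing, and 8 genes that set them apart are described here: Mid1, Ltb, Ppp4r4, Cyct, Dhrs7, Exoc3l, Kcnj3 and Hunk. They were picked from the measured values themselves, as genes that differed between the clones whether or not doxycycline was present and that are not known as markers of an embryonic lineage. All 8 were found by symbol among the 23284 gene entries of the authors' deposited table, 1 entry each. Clone 6 carries a Ctcfl transgene that doxycycline induces, and clone 7 has no such transgene. Cells of each clone, of mixed strain background, were grown on mouse embryonic fibroblasts and then replated without them for 48 h, with 2 µg/ml doxycycline or with none. This gives 4 groups: clone 6 with doxycycline, clone 6 without it, clone 7 with doxycycline and clone 7 without it. Each group holds 2 libraries, 1 from each of 2 experiments that the labels call biological replicates. Ctcfl (BORIS) encodes a relative of the insulator protein Ctcf and is normally active in male germ cells. With only 1 clone per genotype, the transgene and other differences between clones cannot be told apart.

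The authors deposited 1 FPKM value per gene and group, a count of sequenced fragments scaled by transcript length and by library size, and no value per library was used here, so the levels below carry no SD and library depth is unknown. A gene is called changed where the authors' deposited q-value is under 0.05. The sum over 10 ES cell markers was 4188 and 4018 FPKM in clone 6, with and without doxycycline, and 4336 and 4109 FPKM in clone 7. Their levels differed widely. The highest, Dppa5a, was at 1553 and 1269 FPKM in clone 6, with and without doxycycline, and 1431 and 1218 FPKM in clone 7. The lowest, Klf4, was at 12.2 and 9.17 FPKM in clone 6 and 19.9 and 15.1 FPKM in clone 7. The sum over 12 fibroblast (feeder) markers was 264 FPKM with and 261 FPKM without doxycycline in clone 6, against 203 and 208 FPKM in clone 7, with 0 of 11 tested markers called in any of the comparisons described. The part of feeder cells in the differences below was not tested. Both clones had transcripts of the Y-linked genes Ddx3y (12.6 and 12.2 FPKM in clone 6, 12.8 and 11.6 FPKM in clone 7, with and without doxycycline) and Eif2s3y (41.6 and 43.0 FPKM in clone 6, 42.0 and 38.4 FPKM in clone 7). Of the ES cell markers Nanog and Zfp42 were called higher and Sox2 and Fgf4 lower in clone 6, in both clone comparisons. Of 8 genes of the sex chromosomes Kdm5d was called higher. Over all genes tested in both clone comparisons, 1.08% were called the same way in both.

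The 8 genes belong to unrelated families. Mid1 encodes a microtubule-bound ubiquitin ligase that marks the catalytic subunit of protein phosphatase 2A (PP2A) for degradation through the adaptor Igbp1. Ltb encodes lymphotoxin beta, which anchors lymphotoxin alpha to the cell membrane and signals through the receptor Ltbr to noncanonical NF-kB, best known from lymphoid organ formation. Ppp4r4 encodes a regulatory subunit of protein phosphatase 4, and Hunk a serine/threonine kinase related to AMP-activated kinase (AMPK). Cyct encodes the cytochrome c of male germ cells, which carries electrons in mitochondria as its somatic counterpart Cycs does. Dhrs7 encodes a short-chain dehydrogenase, Exoc3l a relative of a subunit of the exocyst, the complex that tethers secretory vesicles, and Kcnj3 the GIRK1 subunit of potassium channels that G proteins open in heart and neurons.

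Cyct has a close relative, so its sequence was compared with that of Cycs first. The open reading frames of the transcripts in GENCODE M21 are 318 bases each, and their first 300 bases are shown 5′ to 3′ with every base that differs between them in capitals, to show how far reads can tell these genes apart.
Cyct: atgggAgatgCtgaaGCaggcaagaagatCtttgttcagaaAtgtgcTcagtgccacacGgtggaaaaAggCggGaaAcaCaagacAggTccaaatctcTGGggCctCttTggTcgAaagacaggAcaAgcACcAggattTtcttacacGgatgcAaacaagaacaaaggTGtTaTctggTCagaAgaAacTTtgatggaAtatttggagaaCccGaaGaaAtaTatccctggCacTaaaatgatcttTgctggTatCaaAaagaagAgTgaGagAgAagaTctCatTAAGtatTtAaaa
Cycs: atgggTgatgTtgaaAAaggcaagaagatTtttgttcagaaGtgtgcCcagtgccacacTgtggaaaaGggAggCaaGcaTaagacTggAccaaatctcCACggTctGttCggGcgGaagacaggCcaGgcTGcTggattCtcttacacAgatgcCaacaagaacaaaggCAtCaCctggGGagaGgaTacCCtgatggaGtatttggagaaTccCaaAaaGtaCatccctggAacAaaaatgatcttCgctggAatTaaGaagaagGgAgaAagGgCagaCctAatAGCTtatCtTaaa
The frames are identical at 242 of 318 bases (76.1%), and the longest stretch without a difference is 14 bases. None of the 581 stretches of 75 bases, the read length, in the Cyct transcript occurs in a transcript of another gene. The same was found for Ltb, Ppp4r4, Dhrs7 and Hunk.

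The other 3 genes share sequence with other annotated transcripts. Of the 7058 different stretches of 75 bases in Mid1 transcripts, 26.3% occur in another gene. Of these 958 lie in Mid1-ps1 and 316 in Gm21742, both pseudogenes on chromosome Y, and 806 lie in G530011O06Rik, which is transcribed from the opposite strand. Mid1 spans the boundary of the pseudoautosomal region in laboratory mice, so that part of it has a copy on Y. Kcnj3 shares 28.3% of its stretches with the noncoding RNA Gm26794 and Exoc3l 5.85% with Gm20163, both on the opposite strand. The sources used here give neither the handling of reads with several matches nor the strand setting, so the FPKM of Mid1, Kcnj3 and Exoc3l may include reads of these neighbours or copies.

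Of the 4 genes that were higher in clone 6, Mid1 had the highest level. Mid1 (chromosome X, 169685247 to 169990797, plus strand, build mm10) had 62.4 and 57.4 FPKM in clone 6, with and without doxycycline, against 12.1 and 11.4 FPKM in clone 7. Among all entries it ranked 1591 and 1735 in clone 6 with and without doxycycline and 5894 and 6043 in clone 7, where 1 is the most abundant. The lowest clone 6 value was thus well above the highest clone 7 value, and the same holds for the other 3 genes of this group. Ltb (chromosome 17, 35194507 to 35196305, plus strand) was at 23.3 FPKM with and 20.2 FPKM without doxycycline in clone 6, against 3.85 and 4.94 FPKM in clone 7. Cyct (chromosome 2, 76353943 to 76360448, minus strand) was at 21.5 and 20.1 FPKM in clone 6, with and without doxycycline, against 2.31 and 2.25 FPKM in clone 7. This germ cell gene ranked 4082 and 4249 among all entries in clone 6, with and without doxycycline, and 10497 and 10570 in clone 7, the lowest ranks of the 8 genes. Ppp4r4 (chromosome 12, 103532565 to 103613832, plus strand) was at 15.4 and 13.1 FPKM in clone 6, with and without doxycycline, against 3.08 and 3.11 FPKM in clone 7.

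The 4 genes that were lower in clone 6 had levels of the same order as one another, between 11.7 and 17.1 FPKM in clone 7 and between 3.43 and 7.09 FPKM in clone 6. Dhrs7 (chromosome 12, 72650353 to 72664828, minus strand) was at 3.58 FPKM with and 3.81 FPKM without doxycycline in clone 6, against 13.0 and 12.8 FPKM in clone 7. Exoc3l (chromosome 8, 105289924 to 105296098, minus strand), also named Exoc3l1, was at 4.61 and 7.09 FPKM in clone 6, with and without doxycycline, against 14.6 and 15.8 FPKM in clone 7. Here the values of clone 6 differ more from each other than those of clone 7 do. Kcnj3 (chromosome 2, 55437156 to 55595525, plus strand) showed the same order, with 3.43 FPKM with and 5.14 FPKM without doxycycline in clone 6, against 11.7 and 12.8 FPKM in clone 7. Hunk (chromosome 16, 90386397 to 90499553, plus strand) was at 6.32 and 7.06 FPKM in clone 6, with and without doxycycline, against 16.1 and 17.1 FPKM in clone 7. All 8 genes are protein coding in GENCODE M21, and their longest coding transcripts have between 3 exons (Ltb) and 25 exons (Ppp4r4).

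**Figure D1:**
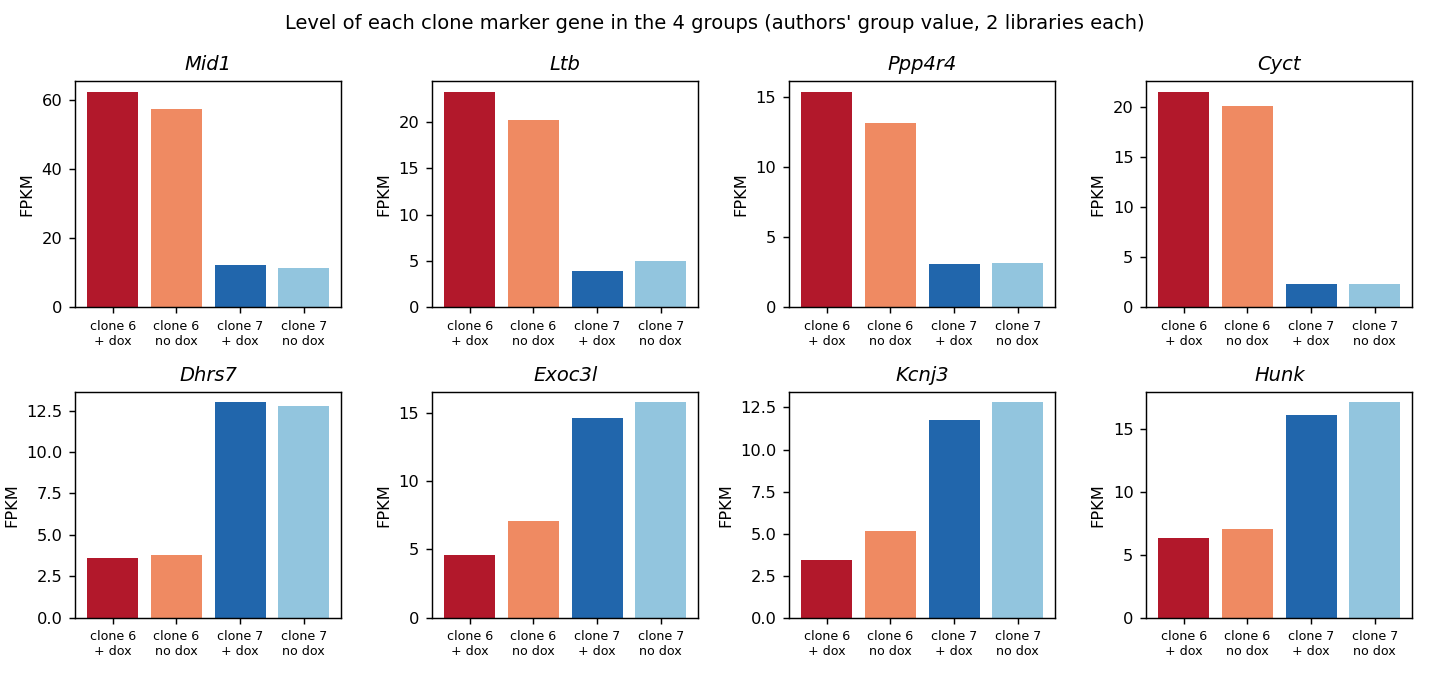
Level in FPKM (vertical axes, each from 0) of the 8 genes in clone 6 with and without doxycycline and clone 7 with and without doxycycline; each bar is the authors' single value for 2 libraries, so there is no error bar. Both clone 6 bars lie above both clone 7 bars for Mid1, Ltb, Ppp4r4 and Cyct (Mid1 at 62.4 and 57.4 against 12.1 and 11.4 FPKM) and below them for Dhrs7, Exoc3l, Kcnj3 and Hunk.

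Since the genes were chosen for it, their difference between the clones is given as a description. Cyct differed most, 9.32-fold between clone 6 and clone 7 with doxycycline and 8.94-fold without it. Mid1 was 5.16-fold and 5.02-fold higher in clone 6, with and without doxycycline, Ppp4r4 4.99-fold and 4.22-fold, and Ltb 6.05-fold and 4.09-fold. Ltb was the gene of this group whose difference varied most between the culture conditions, on the log2 scale 2.60 with doxycycline and 2.03 without it. Among the lower genes the log2 difference, clone 6 over clone 7, was -1.86 with doxycycline and -1.75 without it for Dhrs7, and -1.35 and -1.28 for Hunk. It was -1.66 and -1.15 for Exoc3l and -1.78 and -1.32 for Kcnj3, so these genes stood further apart with doxycycline. Standard errors implied by the deposited test statistics ran from 0.25 to 0.54 on the log2 scale.

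The authors' q-values called 4 of the 8 genes higher and 4 lower in clone 6 in both clone comparisons. The background was 1.08% of 12853 genes called the same way in both, or 139 genes, of which 79 (0.615%) were higher and 60 (0.467%) lower. By single comparison the background was 1.52% with doxycycline and 1.37% without it. All 8 were also called in the 2 comparisons across clone and condition at the same time (clone 6 with doxycycline against clone 7 without, and clone 6 without against clone 7 with), as were 0.844% of the genes tested in all 4 comparisons. Nothing is read from these counts, because the rule that chose the genes used these contrasts. Ordered by the smaller of their absolute log2 differences, Cyct was 4th, Mid1 11th, Ppp4r4 15th and Ltb 16th of the 79 higher genes. Dhrs7 was 10th, Kcnj3 21st, Hunk 22nd and Exoc3l 28th of the 60 lower genes. The median of that smaller absolute difference was 1.39 over the 79 higher genes and 1.10 over the 60 lower ones, and each of the 8 genes lay above the median of its set.

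**Figure D2:**
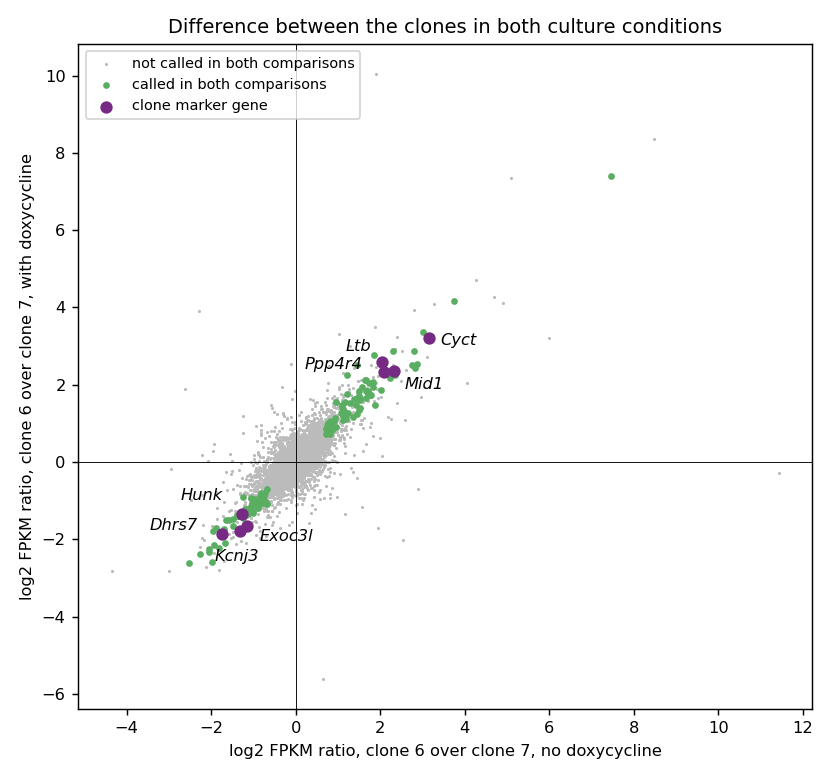
Log2 FPKM ratio of clone 6 over clone 7 without doxycycline (horizontal axis) and with it (vertical axis) for genes tested in both comparisons and above 0 FPKM in every group; green points are genes called in both and purple points the 8 genes described. Cyct stands at 3.16 and 3.22, and Exoc3l and Kcnj3 lie below the diagonal, at -1.15 and -1.66 and at -1.32 and -1.78.

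The genes were chosen from the values of all 4 groups, so their response to doxycycline within a clone, although not the contrast used, is not fully independent of that choice. In the transgenic clone 6 none of the 8 genes was called, against 0.108% of 13003 tested genes (14 genes). By the deposited unadjusted p under 0.05 the count was 1 of 8, Exoc3l, against 1.08% of all tested genes. Exoc3l had a log2 change of -0.62 with doxycycline (SE 0.28, deposited q-value 0.957), and its unadjusted value lay just under that threshold. Kcnj3 followed with a log2 change of -0.58 (SE 0.42). The approximate 95% interval of the response was -1.16 to -0.08 for Exoc3l and -1.40 to 0.23 for Kcnj3. These intervals take the deposited statistic as normal, which the deposited p-values do not follow exactly. For Exoc3l the p-value of the authors' test was 0.0496, against 0.0252 from a two-sided normal test on the statistic.

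The other 6 genes had smaller log2 changes in clone 6. Ppp4r4, Ltb, Mid1 and Cyct had log2 changes of 0.23, 0.20, 0.12 and 0.10, and Hunk and Dhrs7 of -0.16 and -0.09. Their deposited q-values round to 1.00, as those of all 8 genes do in clone 7. Precision differed between them, from an SE of 0.20 for Ltb to 0.46 for Dhrs7. For Dhrs7 the approximate interval ran from -0.998 to 0.82. For Mid1 it ran from -0.31 to 0.56. The median absolute log2 change over the 8 genes was 0.18, beside 0.10 over all tested genes.

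In clone 7, which lacks the transgene, the authors' Cuffdiff-type test called 0 of the 8 genes and 0% of 12908 genes, with 14 of all genes (0.108%) and 0 of the 8 at an unadjusted p under 0.05. Ltb had the largest response of the 8, at 3.85 FPKM with and 4.94 FPKM without doxycycline (log2 change -0.36, SE 0.41). Log2 changes of Exoc3l, Kcnj3 and Hunk were -0.11, -0.12 and -0.09, and those of Mid1, Cyct, Dhrs7 and Ppp4r4 0.08, 0.03, 0.02 and -0.02. The sign for Dhrs7 turned when the median of all genes was set to 0. Cyct, low in this clone, had the widest approximate interval, -1.31 to 1.38, and Exoc3l the narrowest, -0.62 to 0.40. The median absolute log2 change over the 8 genes was 0.08, beside 0.09 over all tested genes.

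**Figure D3:**
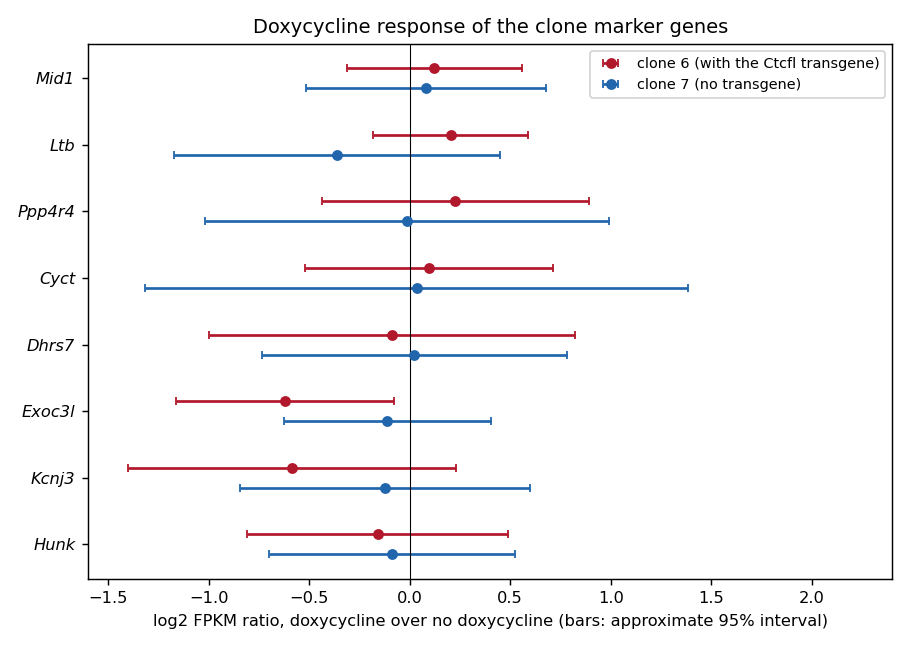
Log2 FPKM ratio of doxycycline over no doxycycline (horizontal axis) for the 8 genes, in clone 6 (red, upper point of each row) and clone 7 (blue, lower point); bars are approximate 95% intervals from the deposited test statistics. All intervals except that of Exoc3l in clone 6 (-1.16 to -0.08) include 0, where the deposited statistics are taken as normal.

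The difference between the clones in the response to doxycycline equals the difference between the clone ratios with and without it, from which the genes were chosen. Choosing genes that differ in both conditions favours a small value, so the figures here are a description. In a two-sided normal test on the deposited statistics of all 12638 genes tested in both clones, none of the 8 genes was called, against 0.142% of all genes (18 genes), and none had an unadjusted p under 0.05, against 0.459%, and nothing is read from these counts. The response of Exoc3l was lower in clone 6 than in clone 7 by the most nearly resolved amount, with a difference of -0.51 on the log2 scale (SE 0.38, approximate interval -1.26 to 0.24). Ltb had the difference of the largest size, 0.56 (SE 0.46, approximate interval -0.33 to 1.46). That of Kcnj3 was -0.46 (SE 0.55). For Mid1 it was 0.04, with an interval of -0.70 to 0.78, and for Cyct 0.06, with an interval of -1.42 to 1.54. The interval of the difference includes 0 for each of the 8 genes, which does not show that their responses are alike.

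The relatives and partners of the 8 genes were then taken from lists written from textbook knowledge, 115 genes beside the members, with Igbp1 in 2 lists. In clone 6 against clone 7 the authors' test called 1 of 90 tested relatives higher and 2 lower with doxycycline, and 1 higher and 0 lower without it. The background for these calls was 0.857% higher and 0.666% lower with doxycycline, and 0.797% and 0.575% without it. The median log2 difference of the relatives was 0.04 with and 0.02 without doxycycline, beside -0.0229 and -0.000994 over all tested genes. For the response to doxycycline 0 of 90 tested relatives were called in clone 6 and 0 of 89 in clone 7. The background for these calls was 0.108% and 0% of all tested genes, so nothing is read from them. Trim67, which encodes a ubiquitin ligase of the same subfamily as Mid1, was the relative called higher. It stood at 8.05 FPKM with and 8.27 FPKM without doxycycline in clone 6, against 2.55 and 2.59 FPKM in clone 7, which is 3.16-fold and 3.19-fold.

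Apart from Trim67, no tested gene listed beside Mid1 was called higher in clone 6. Mid1ip1 was at 46.1 and 50.7 FPKM in clone 6, with and without doxycycline, against 32.6 and 36.0 FPKM in clone 7. Trim36, another ligase of that subfamily, was at 1.48 and 1.43 FPKM in clone 6, with and without doxycycline, against 3.45 and 2.82 FPKM in clone 7, and was called lower with doxycycline. Mid2, the closest paralog, was at 0.22 and 0.26 FPKM in clone 6 and 0.21 FPKM in both groups of clone 7, too low for a test. The adaptor Igbp1 was at 38.4 and 37.4 FPKM in clone 6 and 41.1 and 38.2 FPKM in clone 7. The PP2A subunit gene Ppp2r1a, most abundant in this list, was at 176 and 177 FPKM in clone 6 and 166 and 173 FPKM in clone 7. None of these was called except Trim36.

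Of the pathway of Ltb, 0 of 13 tested genes were called between the clones. Lta, which encodes the lymphotoxin alpha that Ltb anchors, was at 0.45 and 0.26 FPKM in clone 6, with and without doxycycline, against 0.03 and 0.13 FPKM in clone 7. It was too low for a test, and was higher in both clone 6 groups than in both clone 7 groups, as Ltb was. The receptor gene Ltbr was at 9.23 and 9.47 FPKM in clone 6 and 5.99 and 7.10 FPKM in clone 7. Nfkb2, which encodes the NF-kB precursor processed in the noncanonical pathway and was the most abundant of the list in clone 6, was at 19.0 and 16.9 FPKM in clone 6 and 12.4 and 12.8 FPKM in clone 7. Chuk, which encodes the kinase IKK alpha of that pathway and was the most abundant in clone 7, was at 16.3 FPKM in both groups of clone 6 and 17.4 and 17.0 FPKM in clone 7. The median log2 difference of this list was 0.11 with and 0.08 without doxycycline. Of 10 lymphocyte markers, Cd3d and Ms4a1 were listed at 0 in every group, and the sum was 9.22 and 9.92 FPKM in clone 6, with and without doxycycline, against 11.6 and 11.3 FPKM in clone 7. Most of that sum was Lck (6.94 and 8.27 FPKM in clone 6, 9.21 and 9.16 FPKM in clone 7), and 0 of the 2 tested markers, Lck and Cd79a, were called.

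None of the 13 tested genes of cytochrome c biology listed beside Cyct was called. Its somatic counterpart Cycs was at 40.3 and 41.9 FPKM in clone 6, with and without doxycycline, and 39.7 and 38.9 FPKM in clone 7. Cyct was therefore below Cycs in every group, by FPKM, which is per length. Hccs, which encodes the enzyme that attaches heme to cytochrome c, was at 12.9 and 12.7 FPKM in clone 6 and 14.0 and 14.3 FPKM in clone 7. The most abundant gene of the list, the cytochrome c oxidase subunit gene Cox4i1, was at 596 and 573 FPKM in clone 6 and 524 and 559 FPKM in clone 7. Of 11 testis germ cell markers 1 of 5 tested was called in both clone comparisons, Sycp1, which encodes a protein of the synaptonemal complex. The share called over all tested genes was 1.52% with doxycycline and 1.37% without it. Sycp1 was at 3.67 and 3.73 FPKM in clone 6, with and without doxycycline, against 0.76 and 0.73 FPKM in clone 7. The spermatid genes Prm2, Tnp1 and Acrv1 were listed at 0 in every group. Over the list the sum was 29.7 and 29.3 FPKM in clone 6 and 29.3 and 26.8 FPKM in clone 7. Most of that sum was Sycp3 and Ddx4, which were not called and went opposite ways. Sycp3 was at 12.3 and 12.8 FPKM in clone 6, with and without doxycycline, against 17.0 and 15.1 FPKM in clone 7. Ddx4 was at 10.8 and 10.0 FPKM in clone 6 and 8.42 and 8.11 FPKM in clone 7.

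None of the 7 tested genes of the phosphatase 4 list was called, which are 5 subunit genes, the pseudogene Ppp4r1l-ps and Igbp1. The catalytic subunit gene Ppp4c, the most abundant, was at 154 and 166 FPKM in clone 6, with and without doxycycline, and 153 and 163 FPKM in clone 7. Ppp4r1, another regulatory subunit, was at 29.5 and 29.1 FPKM in clone 6 and 38.5 and 38.0 FPKM in clone 7. In each group Ppp4r4 was below each of Ppp4c, Ppp4r1, Ppp4r2, Smek1 and Smek2. Smek2, a further regulatory subunit gene and the lowest of these, was at 17.1 and 19.3 FPKM in clone 6 and 17.5 and 16.5 FPKM in clone 7.

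Among the families of the genes that were lower in clone 6, 1 relative was called. It was Cbr3, which encodes a carbonyl reductase of the same enzyme superfamily as Dhrs7. Cbr3 was at 18.8 and 22.9 FPKM in clone 6, with and without doxycycline, against 40.3 and 38.2 FPKM in clone 7, and was called lower with doxycycline. Its neighbour in the family and the most abundant of the list, Cbr1, was at 40.4 and 43.9 FPKM in clone 6 and 70.7 and 72.8 FPKM in clone 7 and was not called. Dhrs7b, a paralog, was at 18.6 and 19.3 FPKM in clone 6 and 16.9 and 17.9 FPKM in clone 7. The median of the 13 tested dehydrogenases was 0.13 on the log2 scale in both conditions, opposite in sign to Dhrs7.

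None of 12 tested genes of the exocyst list was called. Exoc3, the subunit that Exoc3l resembles, was at 9.26 and 9.25 FPKM in clone 6, with and without doxycycline, and 9.44 and 9.40 FPKM in clone 7. Exoc4, the most abundant, was at 24.5 and 23.4 FPKM in clone 6 and 24.4 and 22.1 FPKM in clone 7. In clone 7 Exoc3l was thus above Exoc3 by FPKM, and in clone 6 below it.

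Kcnj3 was the most abundant gene of its channel family in every group, and 2 of its 16 listed relatives were tested, with 0 called. GIRK channels pair GIRK1 with the product of Kcnj5, Kcnj6 or Kcnj9. Kcnj5 and Kcnj6 were at 0.0331 FPKM or less in every group, and Kcnj9 was at 0.25 and 0.38 FPKM in clone 6, with and without doxycycline, and 0.20 and 0.29 FPKM in clone 7. Abcc8, a subunit of another potassium channel and the most abundant relative, was at 1.76 and 2.23 FPKM in clone 6 and 1.63 and 1.91 FPKM in clone 7. Of 9 neuron markers 7 were tested between the clones with doxycycline and 6 without it, with 0 called. The sum over the 9 was 106 and 98.3 FPKM in clone 6, with and without doxycycline, against 134 and 126 FPKM in clone 7. Most of this was Stmn2 and Tubb3, and Gad2, a marker of inhibitory neurons, was between 0.0702 and 0.0836 FPKM. Their part in the level of Kcnj3 was not tested. In these bulk samples fewer cells of a type and less RNA per cell cannot be told apart.

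None of the 20 tested kinases related to AMPK was called, and their median log2 difference was -0.02 without doxycycline and nearer to 0 with it. Stk11, an upstream kinase of AMPK, was the most abundant of the list. It was at 63.5 and 66.1 FPKM in clone 6, with and without doxycycline, and 63.0 and 67.1 FPKM in clone 7. Melk, a cell cycle kinase, was at 29.3 and 28.5 FPKM in clone 6 and 30.7 and 29.5 FPKM in clone 7. Hunk was below Stk11 and Melk in every group.

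**Figure D4:**
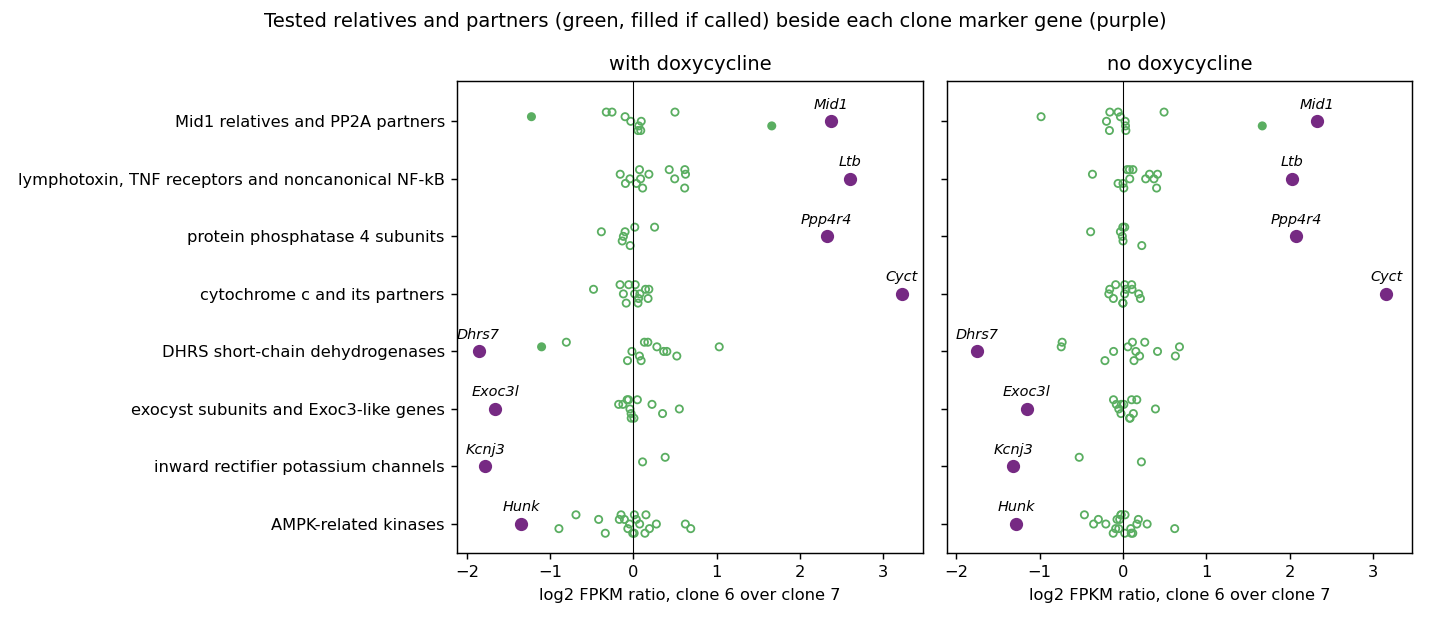
Log2 FPKM ratio of clone 6 over clone 7 (horizontal axes) with doxycycline (left) and without it (right) for each of the 8 genes (purple) and the tested genes of its list (green, filled where called). The filled green points are Trim67 at 1.66 and Trim36 at -1.22 in the top row and Cbr3 at -1.10 in the fifth row on the left, and Trim67 at 1.67 on the right.

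The positions of the genes were not used to choose them. They lie on 6 chromosomes, with Cyct and Kcnj3 on chromosome 2 and Ppp4r4 and Dhrs7 on chromosome 12. The 3 nearest tested genes on each side were taken, 45 in all since none followed Mid1 in the order of tested genes on X. Of these, 1 was called in each clone comparison, beside 1.52% of all tested genes with doxycycline and 1.37% without it. The neighbour called was Serpina3m, a serine protease inhibitor gene 773 kb from Ppp4r4. It was lower in clone 6, at 0.58 and 0.57 FPKM with and without doxycycline, against 3.53 and 3.30 FPKM in clone 7. Ppp4r4 was higher in clone 6, so these neighbours went opposite ways. The median absolute log2 difference of the 45 neighbours was 0.17 with and 0.18 without doxycycline, beside 0.17 and 0.14 over all tested genes.

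Some neighbours had sizeable ratios without being called. G530011O06Rik, the noncoding gene inside Mid1 on the opposite strand, was at 4.84 and 3.94 FPKM in clone 6, with and without doxycycline, against 1.65 and 1.47 FPKM in clone 7. Where G530011O06Rik and Mid1 share sequence, their reads cannot be told apart without strand. Gsc, a homeobox gene of the embryonic organizer 857 kb from Ppp4r4, was at 3.52 and 3.37 FPKM in clone 6, with and without doxycycline, against 0.64 and 0.90 FPKM in clone 7. Ifi27l2a, an interferon-inducible gene on the other side of Ppp4r4, was at 4.41 and 4.66 FPKM in clone 6 and 1.54 and 2.33 FPKM in clone 7. Of the tested genes next to Ltb in the major histocompatibility complex, none was called between the clones. Genes too low for a test, such as Lta, were not among the neighbours considered. Tnf, which encodes tumour necrosis factor and lies 3.09 kb from Ltb, was at 0.68 and 0.58 FPKM in clone 6, with and without doxycycline, against 0.44 and 0.53 FPKM in clone 7. Around Exoc3l the cell cycle factor gene E2f4 was at 131 and 139 FPKM in clone 6 and 147 and 159 FPKM in clone 7. Next to Hunk, Scaf4 was at 39.7 and 44.9 FPKM in clone 6 and 46.9 and 47.8 FPKM in clone 7.

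**Figure D5:**
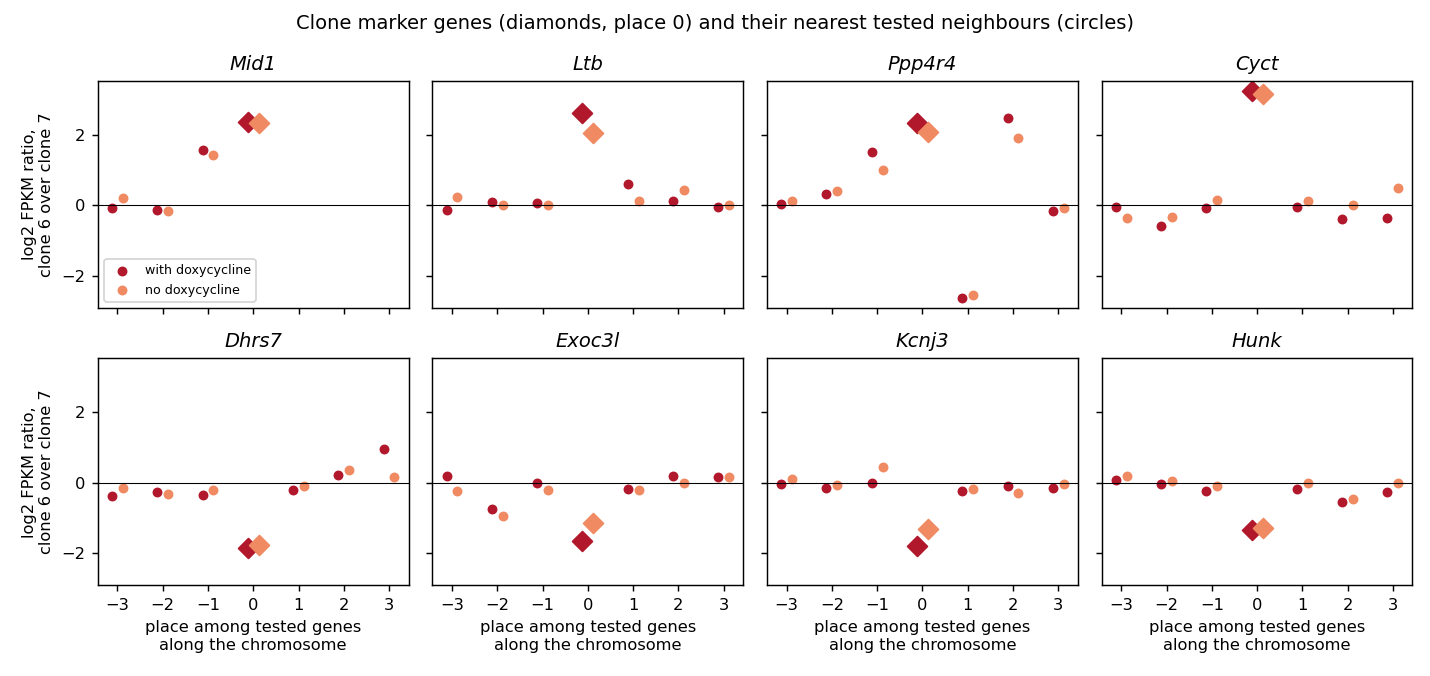
Log2 FPKM ratio of clone 6 over clone 7 (vertical axes) for each of the 8 genes (diamonds, place 0) and up to 3 tested genes on each side in chromosome order (circles), with doxycycline (dark red) and without it (orange). The circles below -2 beside Ppp4r4 are Serpina3m at -2.61 and -2.53, the only neighbour called.

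Genes with the most similar pattern were sought by the distance between log2(FPKM + 1) profiles, centred on their mean over the 4 groups, among 12320 genes. This is a description over 4 group values. The added 1 shrinks ratios at low FPKM, so genes of low level with larger clone ratios can lie near. Nearest to Mid1 was Wnt8a, which encodes a Wnt ligand of the primitive streak, at 15.1 and 17.3 FPKM in clone 6, with and without doxycycline, and 2.80 and 2.45 FPKM in clone 7 (distance 0.22). Nearest to Ltb was Wnt3, another ligand of the streak, at 7.87 and 7.02 FPKM in clone 6 and 1.07 and 1.44 FPKM in clone 7 (distance 0.18), and Wnt3 was also the second nearest to Ppp4r4. Nearest to Cyct was Sp5, a transcription factor gene that Wnt signals induce, at 34.4 and 24.0 FPKM in clone 6 and 3.34 and 2.99 FPKM in clone 7 (distance 0.32). Each of these was, as the gene it lies nearest to, higher in both clone 6 groups than in both clone 7 groups. A search for similar profiles favours a shared direction, so nothing is read from it. The nearest to Ppp4r4 was Ubd, which encodes a ubiquitin-like modifier, at 2.68 and 2.21 FPKM in clone 6 and listed at 0 in both groups of clone 7 (distance 0.11).

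The second nearest to Mid1 and to Cyct was Gm8909, which was not called in either clone comparison. Gm8909 was at 5.04 and 4.69 FPKM in clone 6, with and without doxycycline, and 0.03 and 0.14 FPKM in clone 7. Its log2 difference between the clones without doxycycline was 5.09, against 2.33 for Mid1 and 3.16 for Cyct. The second nearest to Ltb was Wfdc2, which encodes a secreted protein with whey acidic protein domains, at 77.5 and 75.4 FPKM in clone 6 and 18.3 and 21.3 FPKM in clone 7.

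Among the lower genes, Exoc3l and Kcnj3 were nearest to each other (distance 0.09). Both were lowest in clone 6 with doxycycline and highest in clone 7 without it, an order that Hunk and the gene Trp53i11 also had. Trp53i11, a gene named for its induction by p53, was nearest to Hunk (distance 0.08) and second nearest to Exoc3l and Kcnj3, at 14.4 and 17.0 FPKM in clone 6, with and without doxycycline, and 37.5 and 39.3 FPKM in clone 7. Nearest to Dhrs7 was Serpina3m (distance 0.10), followed by Rnf165, which encodes a ubiquitin ligase, at 1.09 and 1.07 FPKM in clone 6 and 5.70 and 5.18 FPKM in clone 7. The second nearest to Hunk was Cass4, which encodes a scaffold protein of focal adhesions, at 0.53 and 0.65 FPKM in clone 6 and 2.35 and 2.48 FPKM in clone 7.

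Promoter windows, 250 bases before to 50 after the transcription start, were found for 7 of the 8 genes in RefSeq's table for GRCm38.p6, and Exoc3l had none. Mid1 had 3 windows, of which the one nearest to the start in the deposited table was used, and the other genes had 1 each. Their base composition spanned most of the range seen over 32851 windows, where the median is 7 CpG dinucleotides. The windows of Mid1 and Ppp4r4 are printed because these genes share a direction and a similar fold between the clones and their windows differ widely in CpG content, with 2 and 44 CpG, shown in capitals. The other windows of Mid1, further into the gene, had 6 and 13 CpG.
Mid1 (chrX:169684949-169685248, plus strand): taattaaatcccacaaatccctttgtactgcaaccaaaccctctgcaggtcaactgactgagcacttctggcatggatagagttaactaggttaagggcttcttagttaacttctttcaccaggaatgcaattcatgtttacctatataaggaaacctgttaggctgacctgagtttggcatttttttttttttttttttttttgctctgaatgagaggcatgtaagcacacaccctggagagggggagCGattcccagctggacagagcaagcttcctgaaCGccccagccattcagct
Ppp4r4 (chr12:103532315-103532614, plus strand): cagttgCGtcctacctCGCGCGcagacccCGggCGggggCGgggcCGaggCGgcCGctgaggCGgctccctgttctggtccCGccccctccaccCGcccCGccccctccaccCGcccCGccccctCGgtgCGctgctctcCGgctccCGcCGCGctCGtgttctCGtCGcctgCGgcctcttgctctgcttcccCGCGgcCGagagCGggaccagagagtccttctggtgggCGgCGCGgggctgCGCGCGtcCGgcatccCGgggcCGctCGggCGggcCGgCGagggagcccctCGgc
Hunk, which was lower in clone 6, had 41 CpG, and Dhrs7 22. Kcnj3, Cyct and Ltb had 10, 8 and 7. The window of Kcnj3 begins its transcript 1186 bases from the start in the deposited table. The CpG-richest windows thus belonged to a gene that was higher in clone 6, Ppp4r4, and to one that was lower, Hunk.

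Both strands of these windows were searched for CCCTC, the repeat for which Ctcf is named, and for AGNNGGC, a part of the sequence that Ctcf binds. CCCTC was in 6 of the 7 windows, all except that of Cyct, beside 66.0% of all windows. AGNNGGC was in 5 of 7, with none in those of Mid1 and Cyct, beside 59.8% of all windows. Both other windows of Mid1 held AGNNGGC, and 1 of them held CCCTC. A match only says that these letters are in the window.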

How the data were processed

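RNA of 8 libraries, 2 for each of 4 groups, was sequenced. Per the submitters' processing notes, TopHat2 2.0.8, Cufflinks 2.1.1 and build mm10 were used. The sources used here give no annotation, strand setting, normalization mode or depth. The authors deposited, for 23284 gene entries and 6 comparisons, 1 FPKM value per group, a test statistic (a score), a p-value and a q-value. The deposited q-values equal a Benjamini-Hochberg adjustment over all 78127 tests, to within 5.21e-07, and the smallest p-value the table holds is 5e-05.

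From these, log2 ratios of the FPKM values were computed, with no pseudocount. An approximate standard error is the log2 ratio divided by the deposited statistic, and intervals are at 95%. The difference of the responses of the clones was tested with a two-sided normal test on these errors. Its p-values were adjusted over all 12638 genes by Benjamini-Hochberg. The step was also run on simulated data drawn with these same errors, which cannot show whether the errors are right. With 1 value per group, the deposited p-values rest on the authors' own model of the spread between 2 libraries. The genes and the lists of relatives and markers were chosen with earlier results of these data known. Named are the 8 genes, the 2 nearest profiles to each, relatives and neighbours that were called, and the most abundant relative of each list. Partners, paralogs and neighbours named beside these were chosen after their values were seen. Starts in the deposited table count from 0, so 1 was added. Annotation, transcripts and stretches of 75 bases came from GENCODE M21 on GRCm38, with the longest open reading frame taken for Cyct and Cycs, and promoters from RefSeq. Python 3.11.15, pandas 2.3.3, numpy 2.4.6, scipy 1.17.1 and matplotlib 3.10.9 were used. Alternatives were other q thresholds, adjustment within a comparison, minimum levels, pseudocounts and scalings.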

Additional observations from a re-analysis of the deposited data

How the results depend on the processing

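The count of the 8 genes called between the clones was 8 with doxycycline under each alternative, and without it 8 or, at a q-value under 0.01, 7, where Exoc3l was not called. The counts for the response to doxycycline, and for the difference of responses, were 0 under each alternative run. With standard errors taken from the deposited p-values, the number of all genes called for a difference of responses was 0, against 18, with 26 and 58 at an unadjusted p under 0.05. Of the log2 values of single genes under other pseudocounts and scalings, 127 kept their direction, and the response of Dhrs7 in clone 7 turned to -0.0012 when the median of all genes was set to 0, a shift of 0.02. No paired analysis was possible because the deposited table holds 1 value per group and none per library, and for the same reason no library could be left out. Genes at low FPKM, such as Cyct in clone 7, have the widest intervals, and depth is unknown.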
